A study of Homo sapiens with 16 samples.

Results

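The regions described here are the genomic sites listed as bound by AIB1 in D4 cells, compared between the list named after MCF10A and the list named after MCFDCIS. MCF10A is a non-tumorigenic human mammary epithelial line and MCFDCIS is a derivative line that forms lesions like ductal carcinoma in situ. Each of the 2 D4 groups had 3 ChIP-seq samples, immunoprecipitated with an AIB1 antibody, and 1 input sample. The labels do not say what D4 stands for at the level of the cells, how the D4 lines were made, whether a line is 1 clone, or whether the 3 samples came from separate cultures. All groups were grown in medium with horse serum, EGF, hydrocortisone, cholera toxin and insulin, so every group was exposed to a glucocorticoid. The cell type field describes MCF10A samples as carcinoma in situ cells too.

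The authors deposited 1 list of regions, called clusters, per group, without values per replicate or depth, so no replicate error could be given and each test below compares lists of regions. The MCF10A-named D4 list held 138 clusters and the MCFDCIS-named D4 list 99, which together are 228 of the 897 different clusters of the series. The sample descriptions cite the lists crosswise, with MCFDCIS-D4 samples pointing to the MCF10A-named file and MCF10A-D4 samples to the MCFDCIS-named file. The line behind each list is therefore uncertain, and the lists are called by the name in the file. Clusters were put in 3 classes by an overlap of at least 1 bp. There were 9 clusters in both D4 lists, 129 in the MCF10A-named list only and 90 in the MCFDCIS-named list only. Whether the lists hold the D4 isoform could not be checked, because they carry no measure of AIB1 itself.

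AIB1, also called SRC-3 and encoded by NCOA3, is a coactivator without its own sequence-specific contact to DNA. Nuclear receptors and other transcription factors such as AP-1 recruit it to enhancers and promoters, where it brings in histone acetyltransferases. The series title speaks of AIB1D4. AIB1-delta-4 is known as a shorter splice isoform that lacks the amino-terminal part of the protein.

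The D4 lists had few clusters in common. The 9 common clusters were 6.52% of the MCF10A-named list (exact 95% interval 3.03 to 12.02) and 9.09% of the MCFDCIS-named list (4.24 to 16.6). The lists give no values for regions left out. Whether a cluster of 1 list only fell just short of the other list could therefore not be checked. ABLIM3, which encodes an actin-binding LIM protein, had a common cluster at chr5:148521401-148521410, 17 bp downstream of a transcription start site (TSS). ACTN1, which encodes the actin crosslinker alpha-actinin, had one in an intron at chr14:69408801-69408860, 4082 bp from the nearest TSS. The common cluster at SREBF1, a regulator of lipid synthesis, covered a TSS within the gene (chr17:17726301-17729360). Intergenic is used here for clusters outside promoters and protein-coding genes, some of which lie in annotated genes of other types. Of the intergenic ones, 1 at chr1:222065151-222065360 lay 149720 bp from DUSP10, a phosphatase of stress-activated kinases, and 1 at chr2:67691051-67691260 lay 66586 bp from ETAA1, an activator of the replication stress kinase ATR. Further ones lay 41883 bp from METTL9, with 1 other close match in the genome, 39078 bp from LRATD2 and 175182 bp from the histone gene H3-7.

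Common clusters were not the highest scored of either list. The score is the authors' own value per cluster, no label or file header defines it, and it was used only within a list. In the MCF10A-named D4 list, where scores ran from 7.01 to 42.1 with a median of 8.38, the common clusters scored 7.02 (H3-7) to 8.80 (ETAA1). In the MCFDCIS-named D4 list, which ran from 7.11 to 25.5 with a median of 9.46, they scored 7.11 (SREBF1) to 10.4 (DUSP10). Of the 9, 6 were also in both parental lists, 1 only in the MCF10A-named parental list (LRATD2), 1 only in the MCFDCIS-named one (ACTN1) and 1 in neither (H3-7). Many scores were tied. The 138 clusters of the MCF10A-named list had 57 different values, with 31 clusters at 8.38 and 22 at 9.24. In the MCFDCIS-named list 99 clusters had 44 different values, and the most frequent were shared by 8 clusters.

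The sequences below show 100 bp windows around the middle of common clusters outside exons, on the forward strand of GRCh37. They were chosen as examples of sites that stand in both lists. Where a cluster is under 100 bp wide, as at ACTN1, the window reaches beyond it. Capitals mark matches to 1 of the 12 motifs that were searched, which are spelled out with their shares further on. DUSP10 holds a match to the palindromic core of the glucocorticoid response element (GRE), ETAA1 a match to the xenobiotic response element (XRE), and ACTN1 no match. The windows at H3-7, METTL9 and SREBF1 had no match either.
DUSP10, chr1:222065206-222065305: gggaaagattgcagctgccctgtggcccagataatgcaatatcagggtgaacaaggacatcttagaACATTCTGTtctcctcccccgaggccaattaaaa
ETAA1, chr2:67691106-67691205: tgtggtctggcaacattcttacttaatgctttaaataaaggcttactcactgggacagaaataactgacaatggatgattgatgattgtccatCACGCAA
ACTN1, chr14:69408781-69408880: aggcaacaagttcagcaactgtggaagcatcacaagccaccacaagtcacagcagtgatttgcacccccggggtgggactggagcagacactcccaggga

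In the MCF10A-named D4 only class the first 10 by score held 1 promoter cluster. It was at CYP1B1, which encodes a cytochrome P450 induced by the aryl hydrocarbon receptor, at chr2:38304101-38304210, 766 bp upstream of the TSS, with a score of 19.7 and 74.0% GC. The highest score, 42.1, belonged to a 5510 bp intergenic cluster whose nearest start was that of MYC, 387210 bp away. FGF1, a fibroblast growth factor gene, had the next, 28316 bp upstream (31.8). SMG9, a gene of nonsense-mediated decay, had an intronic one (22.8). TP63, the basal epithelial transcription factor gene, was the nearest gene to one at chr3:189632751-189632860 (19.7), 125161 bp from a TSS. IGSF23, an immunoglobulin superfamily gene, had an intronic one (19.3). The remaining 4 were nearest to MCFD2, DNAJC3, PNLIPRP3 and TENM2, with scores of 18.8, 18.1, 17.4 and 17.4. Of the 10, 7 had an AP-1 match in their central 500 bp, against 42 of 129 (32.6%) in the whole class. Windows 5 kb to either side held one in 19.8%. Above the median score of the list, 20 of 62 clusters of the class had an AP-1 match, and at or below it 22 of 67.

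These windows of 100 bp are from the MCF10A-named D4 only clusters ranked 4 to 6 by score, shown for their motif matches. The windows at FGF1 and SMG9, which ranked above them, held a TEAD match and no match. The CYP1B1 promoter has 2 matches to the XRE, TP63 has 1 to AP-1, and IGSF23 has 1 to AP-1 and 1 to TEAD. The clusters at IGSF23 and FGF1 are 10 bp wide, and the TEAD matches in their windows lay outside them.
CYP1B1, chr2:38304106-38304205: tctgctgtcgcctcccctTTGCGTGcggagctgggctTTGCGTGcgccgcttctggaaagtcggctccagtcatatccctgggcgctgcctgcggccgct
TP63, chr3:189632756-189632855: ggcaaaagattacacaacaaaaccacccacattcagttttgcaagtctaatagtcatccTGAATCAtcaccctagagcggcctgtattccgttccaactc
IGSF23, chr19:45129406-45129505: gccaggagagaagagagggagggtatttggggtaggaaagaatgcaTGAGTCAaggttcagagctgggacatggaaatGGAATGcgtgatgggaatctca

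In the MCFDCIS-named D4 only class the first 10 held 2 promoter clusters. Of the 10, 2 had an AP-1 match, against 19 of 90 (21.1%) in the whole class and 16.1% of flanking windows. The AP-1 counts of the first 10 were not tested between classes. The shared highest score of 25.5 belonged to the HTD2 promoter within the HTD2 and RPP14 locus (chr3:58293201-58293860) and to an intergenic cluster 7916 bp from GOLGA6D, which had 3 other close matches in the genome. PSMA3, a proteasome subunit gene, followed with a cluster at chr14:58711801-58711810, 179 bp downstream of its TSS (23.5). ABLIM1, an actin-binding LIM protein gene like ABLIM3, had an intronic cluster at chr10:116484201-116484310 (21.9). An intergenic cluster 142886 bp from LONRF1 scored 18.99 and had 5 other close matches. EML2 (13.8), NBPF1 (13.6, with 55 other close matches), DNAJB12 (13.1) and a cluster 1578 bp from LRATD2 (13.1) were also among the 10. Read placement at clusters with close matches elsewhere is uncertain. Such matches were found for 8 of the 90 clusters, against 6 of 129 in the MCF10A-named D4 only class. Only the central 100 bp of each cluster was searched, so wide clusters were checked only in part.

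The windows that follow are from 4 MCFDCIS-named D4 only promoter clusters, outside exons, and all but PSMA3 were chosen for a match. PSMA3 has no match, CD55 holds an E-box, VGLL4 an AP-1 match and TPRG1 a GRE match.
PSMA3, chr14:58711756-58711855: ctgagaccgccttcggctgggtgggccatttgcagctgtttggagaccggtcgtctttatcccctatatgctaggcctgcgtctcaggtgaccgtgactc
CD55, chr1:207494606-207494705: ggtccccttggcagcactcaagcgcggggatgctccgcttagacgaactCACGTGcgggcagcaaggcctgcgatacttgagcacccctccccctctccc
VGLL4, chr3:11609706-11609805: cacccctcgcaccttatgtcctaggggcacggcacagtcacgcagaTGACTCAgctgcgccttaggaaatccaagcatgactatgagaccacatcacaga
TPRG1, chr3:188665881-188665980: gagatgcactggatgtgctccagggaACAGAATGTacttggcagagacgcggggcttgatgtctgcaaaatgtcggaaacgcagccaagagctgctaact

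Promoter clusters were more frequent in the MCFDCIS-named D4 only class. A promoter was taken as the stretch within 1 kb of the TSS of a protein-coding transcript. Of the 90 clusters, 31 were at promoters, 34.4% (exact 95% interval 24.7 to 45.2). Of the 129 clusters of the MCF10A-named D4 only class, 10 were, 7.75% (3.78 to 13.8). The difference was 26.7 points (15.8 to 37.5, Fisher's exact test, two-sided, p = 9.37e-07, adjusted over 4 share tests 3.75e-06). Among the common clusters 3 of 9 were at promoters, ABLIM3 and SREBF1 among them. Of 669 parental clusters in no D4 list, 73 were at promoters, 10.9% (8.65 to 13.5), which was not tested against the classes. The difference kept its direction at 500 bp, 2 kb and 5 kb. It also did so without chromosome 19, which held 9 of the 31 and 1 of the 10 promoter clusters. The direction was the same with loci of a single D4 only class, where 6 of 74 MCF10A-named and 18 of 57 MCFDCIS-named loci held a promoter cluster. Loci with clusters of both lists, 23 of 154, were left out of that comparison.

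**Figure D1:**
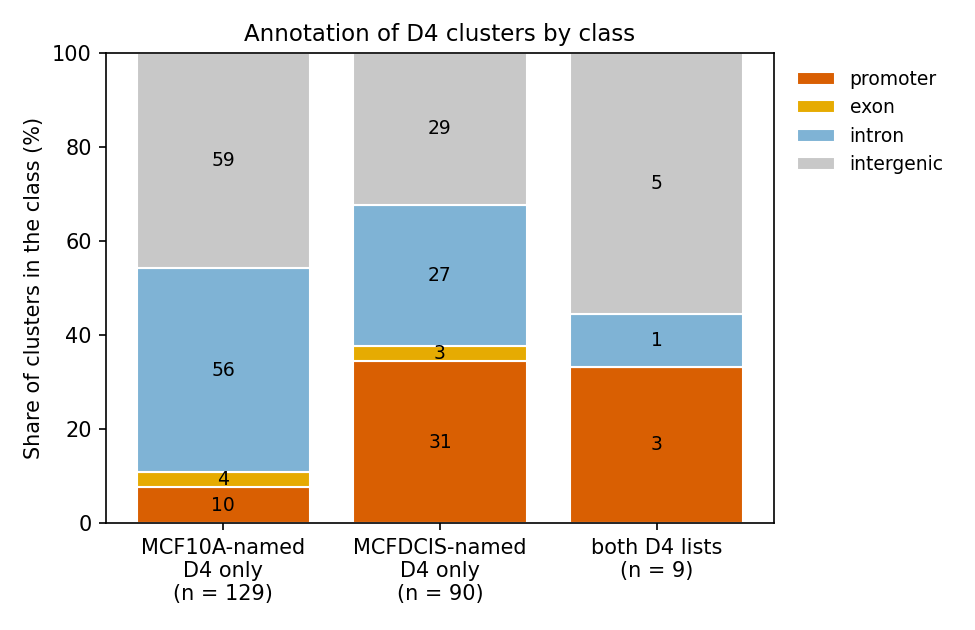
Stacked bars give the share (%) of clusters at promoters, in exons, in introns and outside protein-coding genes (intergenic) for each class. The number of clusters is written in each piece. Promoters make up 31 of 90 MCFDCIS-named D4 only clusters and 10 of 129 MCF10A-named D4 only clusters.

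The 31 promoters of the MCFDCIS-named D4 only class belonged to genes of varied roles. In protein and RNA handling they were those of PSMA3, of the ribosomal protein gene RPS14 (score 9.27, chr5:149828101-149828510), of the leucyl-tRNA synthetase gene LARS1 (9.04), of the splicing factor gene HNRNPL (10.4) and of the helicase gene DDX41 (9.97). ERCC1 (8.18) encodes a DNA repair protein. AKT1S1 (9.27) encodes an inhibitor of the mTORC1 kinase complex, and SREBF1 (10.4) had a 6360 bp cluster over its upstream start at chr17:17738851-17745210. SAR1B (10.0) acts in export from the endoplasmic reticulum, MGAT1 (9.46) in glycan synthesis and PSAP (10.8) in the lysosome. S100A2 (8.43), a calcium-binding protein gene of basal epithelium, KCNN4 (10.4), a potassium channel gene, CD55 (7.11), a complement inhibitor gene, and VGLL4 (10.5), a gene for a TEAD cofactor, were also among them. MYNN (10.7), ZNF574 (9.31), ZNF581 (9.27) and ZNF460 (10.0) encode zinc finger proteins. Further promoter clusters lay at HTD2, CSNK1G3, SPATA24, TPRG1, POU5F1B, RAI1, DRC3, DRG2, C19orf73 and PDE4DIP.

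The 10 promoter clusters of the MCF10A-named D4 only class lay at 9 genes. Besides CYP1B1 they were at NME1 (score 7.88), a nucleoside diphosphate kinase gene, the DNA repair gene ERCC1 (11.8), the transcription factor gene ZBTB20 (7.02), the centrosome gene CEP120 (7.20), WDR55 (8.38), the nucleoside transporter gene SLC29A3 (8.38), PDXDC1 (7.09) and PDE4DIP, which had 2 (9.03 and 12.8). The ERCC1 clusters of the classes were not the same region. The MCF10A-named one was at chr19:45927451-45927860 and the MCFDCIS-named one at chr19:45981601-45982510, over different annotated starts. PDE4DIP likewise had promoter clusters in both classes, 3 in all, each 8760 bp wide. With 1 TSS per gene, a choice made after the data were seen, the difference was 19.5 points (Fisher's exact test, adjusted p = 8.78e-05).

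Away from promoters no difference in gene position was found. Of the clusters outside promoters, bodies of protein-coding genes held 60 of 119 in the MCF10A-named D4 only class (50.4%) and 30 of 59 in the MCFDCIS-named one (50.8%). Counting all annotated genes, 88 of 119 and 46 of 59 lay in a gene. The next values are for protein-coding genes. The difference was 0.427 points (interval -15.2 to 16.0, adjusted p = 1.0 by Fisher's exact test), a comparison chosen after the data were seen. Over all clusters the shares were 46.5% of 129 and 33.3% of 90, with a difference of -13.2 points that did not pass (Fisher's exact test, p = 0.0693, adjusted p = 0.0924). That comparison leaves promoter clusters out of the counts but keeps them in the totals, so it moves with the promoter share. Exons outside promoters held 4 and 3 clusters. The median distance to the nearest TSS was 24847 bp in the MCF10A-named and 9084 bp in the MCFDCIS-named D4 only class. Among the clusters away from promoters it was 30787 and 28182 bp. Over 100 kb from any TSS were 33 of 129 and 13 of 90 clusters.

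**Figure D2:**
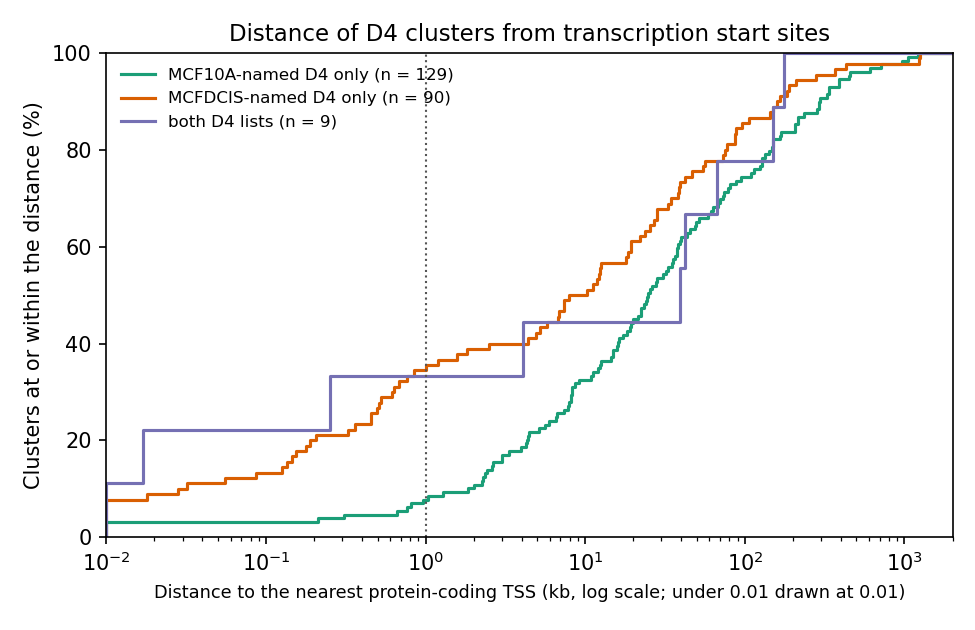
Lines give the share (%) of clusters at or within a distance of the nearest protein-coding TSS, in kb on a log scale, for each class, and the dotted line marks 1 kb. The MCFDCIS-named D4 only line stands at 34.4% and the MCF10A-named D4 only line at 7.75% at that mark.

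GC content was lower in the MCF10A-named D4 only class. Its median over the central 500 bp was 41.8% (quartiles 37.2 and 48.0), against 48.1% (43.4 and 55.6) in the MCFDCIS-named D4 only class and 51.4% in the 9 common clusters. At least 50% GC was found in 25 of 129 clusters, 19.4%, and in 35 of 90, 38.9%. The difference was 19.5 points (7.35 to 31.7, Fisher's exact test, p = 0.00198, adjusted p = 0.00396). Parental clusters in no D4 list had a median of 46.2%, and 37.1% of them reached 50%, a share that was not tested against the classes. The highest values were those of the promoter clusters of CYP1B1 (74.0%) and PSAP (70.0%), and the lowest in each class were 29.6% and 32.2%, both away from promoters.

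GC content and promoter position moved together. Promoter position was taken from the nearest edge of a cluster and GC content from its middle. Widths ran from 10 to 9310 bp in the MCF10A-named and from 10 to 8760 bp in the MCFDCIS-named D4 only class. The GC window of a wide promoter cluster can therefore lie away from the TSS, and that of a narrow one is mostly flank. Of the promoter clusters, 6 of 10 and 18 of 31 reached 50% GC. Without promoter clusters the medians were 41.8% (n = 119) and 47.2% (n = 59), and the difference in the share was 12.8 points (Fisher's exact test, adjusted p = 0.0924). Among clusters under 50% GC, promoters were 19.8 points more frequent in the MCFDCIS-named D4 only class (Fisher's exact test, adjusted p = 0.00098). Among those of at least 50% they were 27.4 points more frequent, with n = 25 and n = 35 clusters, and the call was lost (Fisher's exact test, adjusted p = 0.0751). The GC call was also lost without chromosome 19 (13.3 points, exact test, adjusted p = 0.0829) and without clusters of 10 bp (16.8 points, exact test, adjusted p = 0.078). The CpG observed to expected ratio had a median of 0.194 and 0.290 in the classes, and of 0.548 and 0.581 at their promoter clusters.

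**Figure D3:**
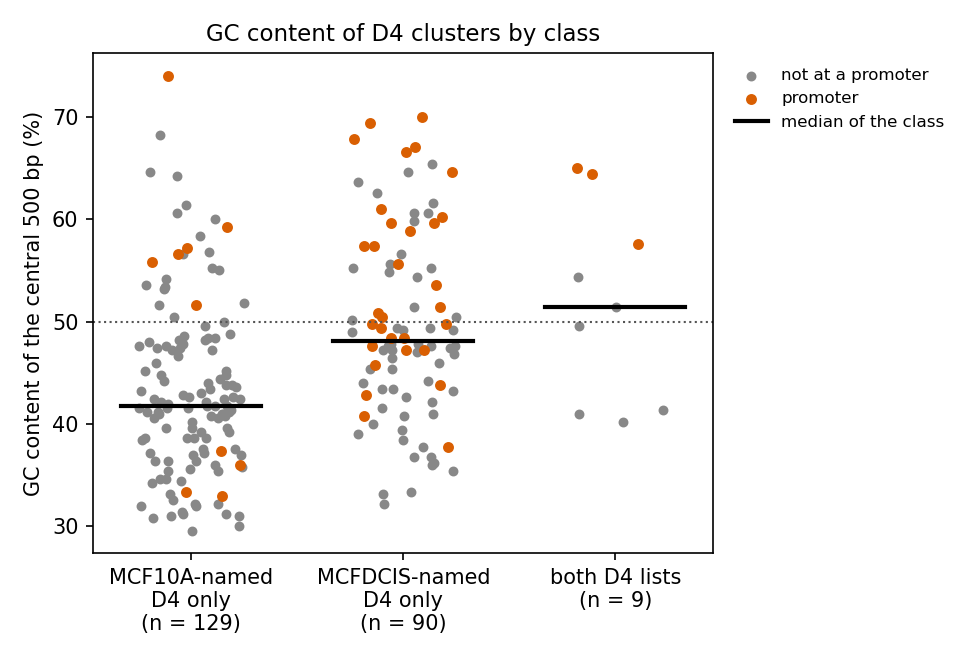
Points are clusters, with GC content (%) of the central 500 bp on the vertical axis and class on the horizontal axis, and promoter clusters in orange. Black bars are class medians (41.8%, 48.1% and 51.4%) and the dotted line is 50%.

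Similar shares of each class were also parental clusters, but in different parental lists. In the MCF10A-named D4 only class 94 of 129 clusters, 72.9%, were in a parental list, and in the MCFDCIS-named D4 only class 63 of 90, 70.0%. The difference was -2.87 points (-15.1 to 9.32, Fisher's exact test, p = 0.651, adjusted p = 0.651), which leaves room for differences of up to those bounds. The parental list of the same name held 60 of 129 (46.5%) and 58 of 90 (64.4%), which is 17.9 points apart (adjusted p = 0.0124, Fisher's exact test). Both parental lists held 14 of 129 (10.9%) and 27 of 90 (30.0%), which is 19.1 points apart (adjusted p = 0.00135, Fisher's exact test). The parental list of the other name held 37.2% and 35.6%. The parental lists differ in length, which bears on these shares by name. Exclusively in the parental list of the other name were 34 of 129 MCF10A-named and 5 of 90 MCFDCIS-named D4 only clusters.

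Promoter clusters of the MCFDCIS-named D4 only class were spread unevenly over these subsets. They made up 16 of the 31 clusters found otherwise in the MCFDCIS-named parental list alone, 10 of the 27 in no parental list, 4 of the 27 in both and 1 of the 5 in the MCF10A-named parental list alone. PSMA3, HTD2, LARS1 and HNRNPL belonged to the first subset, and RPS14, DDX41 and MGAT1 to the second. In the MCF10A-named D4 only class the counts in the same order were 1 of 34, 2 of 35, 3 of 14 and 4 of 46. CYP1B1 was in both parental lists. The promoter difference between classes held within the clusters of no parental list (31.3 points, Fisher's exact test, adjusted p = 0.00586) and within those of at least 1 (24.8 points, adjusted p = 0.000497, exact test).

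**Figure D4:**
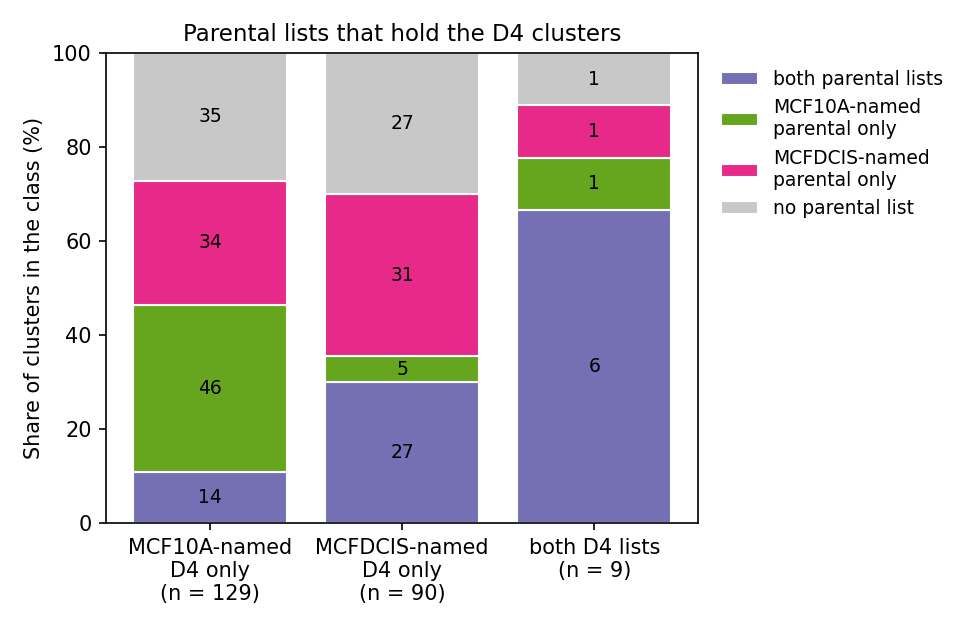
Stacked bars give the share (%) of each class found in both parental lists, in 1 of them or in none, with numbers of clusters in the pieces. The MCF10A-named parental list alone holds 46 of 129 MCF10A-named D4 only clusters and 5 of 90 MCFDCIS-named D4 only clusters.

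Some D4 only clusters of the lists lay near each other without overlapping. Of the 129 MCF10A-named D4 only clusters 41 (31.8%) had an MCFDCIS-named D4 only cluster within 100 kb, and of the 90 MCFDCIS-named ones 28 (31.1%) had an MCF10A-named D4 only cluster. Within 5 kb the numbers were 7 and 7. The median distance to the nearest one on the same chromosome was 389 and 778 kb. Joining clusters within 100 kb gave 154 loci, of which 16 held D4 only clusters of both lists. FGF1 had MCF10A-named D4 only clusters 22516 and 28316 bp upstream of a TSS and an MCFDCIS-named D4 only cluster 19466 bp upstream. ACTN4, the second alpha-actinin gene of non-muscle cells, had its clusters at chr19:39157501-39157510 and chr19:39145701-39145710. Clusters were dense in 3 stretches of a few Mb, 1 each on chromosomes 8, 10 and 17, with 20, 17 and 11 MCF10A-named D4 only clusters and 4, 7 and 7 MCFDCIS-named D4 only clusters. Together the stretches held 48 of 129 and 18 of 90 clusters. Without them the promoter difference was 22.2 points (Fisher's exact test, adjusted p = 0.00277).

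None of 12 motifs differed in frequency between the D4 only classes after adjustment. Motifs were searched on both strands of the central 500 bp, and shares are given in the order MCF10A-named, MCFDCIS-named D4 only. AP-1 (TGANTCA), the site of FOS and JUN, was in 42 of 129 (32.6%) and 19 of 90 (21.1%), with 19.8% and 16.1% of windows 5 kb to either side. The difference was -11.4 points (-23.1 to 0.235, Fisher's exact test, p = 0.0678, adjusted over 12 motifs 0.201). RUNX (TGTGGTT) was in 14.7% and 6.67% of clusters, against 10.8% and 5.00% of flanks. The GRE core (ACANNNTGT) was in 14.7% and 22.2%, against 12.4% and 10.0%. TEAD (GGAATG) was in 26.4% and 28.9%, against 27.1% and 23.9%. In the MCF10A-named D4 only class its share was close to that of the flanks.

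Several motifs that contain CpG had higher counts in the MCFDCIS-named D4 only class, but none passed. The YY1 core (ATGGCGG) was in 1 of 129 and 5 of 90 clusters (Fisher's exact test, p = 0.044, adjusted p = 0.201). In this 500 bp window it was the only motif with an unadjusted p under 0.05, and in other windows other motifs were. SP/KLF (GGGCGGG) was in 5.43% and 12.2% (Fisher's exact test, adjusted p = 0.201), the XRE (TNGCGTG) in 6.98% and 13.3% (0.275), and the cyclic AMP response element (TGACGTCA) in 0 and 3 clusters (0.201). ETS (CCGGAAG) was in 5.43% and 5.56%, NFY (CCAATCA) in 5.43% and 1.11%, the E-box (CACGTG) in 8.53% and 11.1% and FOX (TGTTTAC) in 6.20% and 11.1%. In windows of the same length at 19752 protein-coding gene starts the share was 9.13% for AP-1, 6.73% for the GRE core, 5.57% for RUNX, 19.4% for TEAD, 47.3% for SP/KLF, 15.1% for ETS, 10.7% for YY1, 10.1% for the XRE, 11.1% for the E-box, 9.33% for NFY, 3.89% for FOX and 2.58% for the cyclic AMP element. The CpG-rich XRE, E-box and SP/KLF letters depend on base composition, whose part was not tested.

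**Figure D5:**
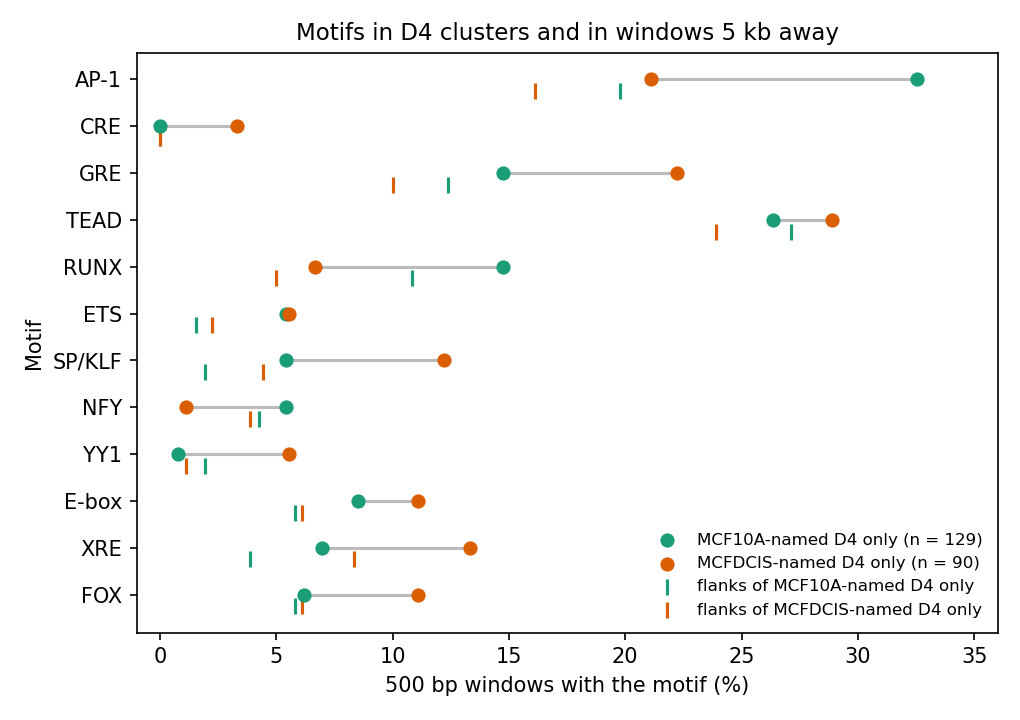
Points give the share (%) of clusters with each motif in the central 500 bp for the D4 only classes, and short bars the share of windows 5 kb away. AP-1 stands at 32.6% and 21.1%, the widest gap of the 12, and no gap passes after adjustment.

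Near genes of 14 pathway and marker lists the classes had few clusters. All 14 lists were written with earlier results of these data known, so none of their counts is independent evidence. Of 18547 protein-coding genes, 1.07% had an MCF10A-named D4 only cluster within 100 kb of a TSS, 1.56% an MCFDCIS-named D4 only cluster and 0.0647% a common cluster. Of 24 glucocorticoid targets, 1 had an MCF10A-named D4 only cluster (DDIT4, an mTORC1 inhibitor gene, at 35.9 kb). An MCFDCIS-named D4 only cluster was near 4, namely PER1, a clock gene (1.81 kb), DDIT4 (53.5 kb), the receptor chaperone gene FKBP5 (86.9 kb) and TFCP2L1 (87.5 kb). The counts rest on few genes, and with 25 kb they were 0 and 1. Of 25 AP-1 and immediate early genes, 1 and 2 had a cluster. FOSB, an AP-1 subunit gene, was near clusters of both classes, at 11.6 and 8.08 kb, and PHLDA1 near an MCFDCIS-named one (11.2 kb). A cluster counted for a list gene can be nearest to another gene, as both FOSB clusters were to ERCC1.

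Genes of actin, integrins and matrix had the most members near common clusters. Of 26, 3 were near a common cluster, ABLIM3 and ACTN1 among them. Near an MCF10A-named D4 only cluster were 5, among them ACTN4 (3.32 kb), ABLIM3 (27.6 kb), TPM1, a tropomyosin gene (72.97 kb), and the urokinase receptor gene PLAUR (82.8 kb). Near an MCFDCIS-named D4 only cluster were 3, namely ACTN4 (7.32 kb), ABLIM1 (39.4 kb) and PLAUR (97.8 kb). The clusters counted for PLAUR were nearest to SMG9 and KCNN4. The list of actin, integrin and matrix genes was drawn up with the common clusters of these data known, so its counts are no independent evidence. Basal and myoepithelial genes numbered 2 of 25 near MCF10A-named D4 only clusters, ITGB4, an integrin gene (20.6 kb), and MYLK, the myosin light chain kinase gene (14.9 kb), and 0 near MCFDCIS-named ones. CYP1B1 was the only 1 of 10 aryl hydrocarbon receptor targets. In lipid synthesis SREBF1 was the only member, with clusters of all 3 classes. PSMA3 was the only proteasome gene of 30 and RPS14 the only ribosomal protein gene of 34.

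Other lists had no member near a D4 cluster. Of all tested genes 1.07% were near an MCF10A-named D4 only, 1.56% near an MCFDCIS-named D4 only and 0.0647% near a common cluster. Counts of 0 in lists this short are near those shares. Some chromosomes with tested genes held no D4 cluster, so list members there could not count. The lists without a member were YAP-TEAD targets (0 of 30), ERBB, IGF and insulin signalling genes (0 of 33), E2F and cell cycle genes (0 of 22) and luminal genes (0 of 21). Marker genes of other cell types gave 1 of 24 blood cell genes (CD14, 31.4 kb from an MCF10A-named D4 only cluster at the WDR55 promoter) and 1 of 20 neuronal genes (CAMK2A, 18.1 kb from an MCFDCIS-named one). Such counts are as high as those of several pathway lists.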

How the data were processed

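Per the series' design text the authors normalized 3 AIB1 ChIP-seq samples per group to cell lysate input, and they deposited 1 list of clusters per group with a score per cluster, whose definition no label or header gives. The build was hg19 (GRCh37) per the submitters' processing notes. No source used here names the aligner, the caller or the depth. Clusters of the D4 lists were annotated with GENCODE release 44 lifted to GRCh37 (nearest edge to a protein-coding transcript's TSS) and the GRCh37 sequence. Overlapping clusters of the lists had identical ends. Shares of the D4 only classes were compared by two-sided Fisher's exact tests with Benjamini-Hochberg adjustment over 4 shares or 12 motifs, with a threshold of 0.05 on the adjusted p. Intervals are exact for shares and normal approximations for differences, and reflect the number of clusters only. Second matches of the central 100 bp were sought with minimap2 2.31 (at least 95% identity over 90 bp). Gene lists left out chromosomes 20, 21, 22 and Y. Named clusters were all common ones, the 10 highest scored of each other class, all promoter clusters and list members within 100 kb. A few of these clusters are not reported here, though the counts include them. The neighbouring clusters at FGF1 and ACTN4, and the windows printed were chosen after their values were seen. The classes, gene lists, motifs and dense regions were chosen with earlier results of these data known. The tests were tried on simulated data. Python 3.11.15, SciPy 1.17.1, pandas 2.3.3 and pysam 0.24.0 were used.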

Additional observations from a re-analysis of the deposited data

How the results depend on the processing

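The promoter difference (MCFDCIS-named minus MCF10A-named D4 only) lay between 19.5 and 31.3 points over 15 other settings and passed in 14. It missed the threshold among clusters of at least 50% GC (27.4 points). The GC difference lay between 12.8 and 35.9 points over 11 settings. It missed the threshold without clusters of 10 bp (16.8 points), without chromosome 19 (13.3 points) and without promoter clusters (12.8 points). The cause was not tested. The gene body difference over all clusters passed with all annotated genes (-17.1 points), but over clusters outside promoters it was 0.427 points, or 4.02 points with all annotated genes, so its sign came from promoter clusters kept in the totals. The difference in parental overlap, -2.87 points and not called, changed sign above the median score (11.2 points), without the dense regions (2.16 points) and without clusters of 10 bp (0.188 points), and also when the same-named parental list (17.9 points) or both parental lists (19.1 points) were asked for. The number of motifs past the threshold was 0 in all 4 settings, with 1 to 3 at an unadjusted p under 0.05. With 25 kb in place of 100 kb, members of the gene lists near a cluster fell from 12 to 5 in the MCF10A-named and from 13 to 8 in the MCFDCIS-named D4 only class. Counting clusters within 1 kb as common raised their number from 9 to 10. The settings without chromosome 19, with loci, with 1 TSS per gene and with gene bodies outside promoters were added after the data were seen. No paired analysis was possible because the lists hold no values per replicate, and for the same reason no replicate could be left out. Depth is unknown.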
